A study of Mus musculus with 11 samples.

Results

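Immediate early genes are transcribed within minutes of a stimulus, before new protein is made, and many of their products are transcription factors or inhibitors of the signal that induced them. The 40 genes described here were taken by name from the deposited count table of a microglia RNA sequencing study in mouse, which lists 55401 genes. They comprise 7 AP-1 genes (Fos, Fosb, Fosl2, Jun, Junb, Jund and Atf3), 3 Egr genes, 2 Nr4a genes, 3 Klf genes and 3 dual specificity phosphatase genes (Dusp1, Dusp2 and Dusp6). The rest are 4 genes of the Ier and Csrnp1 group, 5 of mRNA decay and the Btg family, 4 heat shock genes, 5 feedback and stress genes, and a last group of Cebpb, Cebpd, Myc and Mcl1. They are a list of names with no threshold on a measured value, drawn up with earlier results of these data known, and all 40 were among the 20390 genes that passed the filter on low counts.

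Mitogen-activated protein kinases, the serum response factor and the cAMP response element binding protein switch on many of these genes, though not all. Many of their messages are short-lived. Fos and Jun proteins pair to form the AP-1 factor, Dusp phosphatases remove the activating phosphates from the kinases, and the Zfp36 proteins speed the decay of messages with AU-rich elements. In microglia the same genes are known to be induced by the enzymes and the warmth of tissue dissociation, as well as by stimuli in the brain.

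The question of the study was whether the gene of the lipid phosphatase SHIP1, Inpp5d, alters what loss of TREM2 signalling does in mice with amyloid plaques. Live cells positive for CD11b and CD45 were taken by flow cytometry from brains of C57BL/6 mice aged 9 to 10 months, and libraries were made with SMART-Seq v4, in which full-length cDNA is sequenced without a mark of strand. All 4 groups, the controls included, carried the NLGF App knock-in alleles, which give amyloid plaques. They were NLGF (3 libraries), Inpp5d+/-;NLGF (3), Tyrobp-/-;NLGF (2), which lacks the TREM2 adaptor DAP12, and Tyrobp-/-;Inpp5d+/-;NLGF (3). The last is called the compound mutant, and the others are called the NLGF, Inpp5d+/- and Tyrobp-/- groups. The labels do not say how libraries relate to animals or litters, or how long the dissociation took, and the spread behind each p-value is that among the libraries. The numbers in the titles of the 5 libraries without Tyrobp and of the 6 with it fall in separate ranges, so differences between Tyrobp genotypes cannot be told apart from those of handling or litter.

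Library totals ran from 29490567 to 66637052 counts. Levels are in CPM, counts scaled to a common library size that includes the TMM factor, where the limit of 3 counts per library came to 0.0477 to 0.1 CPM. Tyrobp itself lay between 1952 and 2560 CPM in the 6 libraries with the gene and between 3.22 and 8.94 in the 5 without it. Inpp5d lay at 436, 205 and 313 CPM in NLGF and at 280, 219 and 191 in the Inpp5d+/- group, a log2 fold change of -0.47 (SE 0.253, edgeR adjusted p = 0.952). All 11 microglia markers were present in every group, with summed levels of 48110 to 58150 CPM. The 13 neutrophil markers summed to 0.737 to 233.2 CPM in the 6 libraries with Tyrobp, to 4452 and 19270 in the Tyrobp-/- group, and to 256 to 9962 in the compound mutant. The 11 monocyte markers summed to 18.5 to 81.2 CPM with Tyrobp and to 135 to 2064 without it. Compound replicate 1 stood apart in having few neutrophil marker counts for its genotype and the highest sum over 8 neuron markers, 21.2 CPM against 0.277 to 8.2 elsewhere. In these sorted populations fewer cells of a type and less RNA per cell cannot be told apart.

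Promoter sequences are shown for 5 genes that the results turn on: Fos, the member with the largest difference, Dusp1 and Btg2, which hold the same response element, Egr2, the member that was lower, and Hspa1a, a heat shock gene. Each is the stretch from 250 to 51 bases before a start site, from RefSeq on GRCm38.p6, read 5′ to 3′ on the strand of the gene. Capitals mark a match to the cAMP response element (CRE, TGACGTCA), the heat shock element (GAANNTTC), the CArG box bound by the serum response factor, or the kappa B site. None of these 5 stretches overlaps an exon of the deposited gene models. Fos is at chr12:85473640-85473839 on the plus strand and Btg2 at chr1:134079206-134079405 on the minus strand. Dusp1 is at chr17:26508523-26508722 on the minus strand, before a start site that lies inside the deposited gene model, 53656 bases from its 5′ end. Egr2 is at chr10:67537619-67537818 on the plus strand, also before an internal start site, and Hspa1a at chr17:34972207-34972406 on the minus strand.
Fos: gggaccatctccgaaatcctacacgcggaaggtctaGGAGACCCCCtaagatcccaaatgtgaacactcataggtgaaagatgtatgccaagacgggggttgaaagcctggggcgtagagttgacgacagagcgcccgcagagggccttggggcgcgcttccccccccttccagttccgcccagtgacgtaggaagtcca
Dusp1: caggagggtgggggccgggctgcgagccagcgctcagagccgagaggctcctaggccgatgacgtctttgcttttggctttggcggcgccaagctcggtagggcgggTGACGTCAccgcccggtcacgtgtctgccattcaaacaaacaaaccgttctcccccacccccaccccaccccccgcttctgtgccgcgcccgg
Btg2: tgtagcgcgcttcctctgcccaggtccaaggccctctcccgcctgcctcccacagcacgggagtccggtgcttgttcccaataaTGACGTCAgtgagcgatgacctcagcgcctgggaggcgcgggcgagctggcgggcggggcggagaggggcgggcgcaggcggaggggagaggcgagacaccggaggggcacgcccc
Egr2: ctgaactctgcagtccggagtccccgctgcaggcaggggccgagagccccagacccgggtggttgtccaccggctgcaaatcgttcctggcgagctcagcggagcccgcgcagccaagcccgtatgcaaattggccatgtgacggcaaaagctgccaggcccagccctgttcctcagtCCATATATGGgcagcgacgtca
Hspa1a: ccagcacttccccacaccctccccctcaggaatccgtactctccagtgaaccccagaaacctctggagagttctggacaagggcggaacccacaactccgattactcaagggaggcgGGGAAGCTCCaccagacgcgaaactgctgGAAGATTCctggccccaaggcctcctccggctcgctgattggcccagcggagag

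Fos has a kappa B match 214 bases before the start site. The CRE begins 143 bases before the start in Dusp1 and 166 bases before it in Btg2. The CArG match of Egr2 begins 72 bases before that start site, and Hspa1a has a heat shock element 104 bases and a kappa B match 133 bases before its start. Of the 40 genes, 32 had at least 1 of 40 promoters in the RefSeq table, and all 250 bases before each start were searched on both strands. The other 8, Cebpd, Egr1, Egr3, Hsp90aa1, Ier2, Myc, Nfkbiz and Zfp36l2, were not searched. Sites further upstream and near matches were not counted. The CRE was found in 3 of the 32 genes (9.38%), Btg2, Dusp1 and Ppp1r15a, and in 1.55% of all 32851 promoters. The AP-1 site TGANTCA was in 2 of 32 (6.25%) and in 6.75% of all promoters, and the heat shock element in 4 (12.5%), namely Fosl2, Hspa1a, Hspa1b and Jun, and in 6.69%. The kappa B site was in 8 (25%) and 7.25%, the CArG box in 2 (Egr2 and Zfp36, 6.25%) and 1.47%, and the GC box GGGCGG in 27 (84.4%) and 32.7%. CCAAT was in 16 (50%) and 33.8%, TATAAA in 5 (15.6%) and 12.4%, and the EGR site GCGTGGGCG in none of the 32 and in 0.536%. Shares of the 32 genes count a gene once if any of its promoters matched, while the shares of all promoters are per promoter. The 40 promoters of these genes gave 7.5% for the CRE, 5% for the AP-1 site and 10% for the heat shock element. They gave 20% for kappa B, 12.5% for the CArG box, 72.5% for the GC box, 45% for CCAAT and 12.5% for TATAAA. The CArG share counts several promoters of Egr2, some of them overlapping windows that hold the same match. Hspa1a and Hspa1b, with near-identical promoters, are counted separately in the shares of genes and of promoters. The GC box can lie within an EGR-like stretch, and the palindromic motifs match both strands at the same position. These are letter matches in a window of fixed length, and no binding was measured.

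In the sorted cells, 14 of the 40 genes rose without Tyrobp, 1 fell and 25 were not called. These calls are from the mean Tyrobp effect, which averages the comparison of Tyrobp-/- with NLGF and that of the compound mutant with Inpp5d+/- (5 libraries against 6). A gene was called at an adjusted p below 0.05 from edgeR's quasi-likelihood test with Benjamini-Hochberg adjustment over all tested genes. Of all tested genes, 2.08% were called higher and 2.66% lower. The median log2 fold change of the 40 was 0.64, against 0.02 for all tested genes, and 39 of the 40 had a positive sign. The libraries of both Tyrobp genotypes did not overlap for 13 genes that were higher and 1 that was lower, where all tested genes gave 2.7% and 3.47%. Summed over the 40 genes, the level was 9738, 6986 and 5343 CPM in NLGF, 11060, 9184 and 7497 in Inpp5d+/-, 13380 and 15530 in Tyrobp-/-, and 12290, 16560 and 15550 in the compound mutant. Each library without Tyrobp was above each library with it in this sum.

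**Figure D1:**
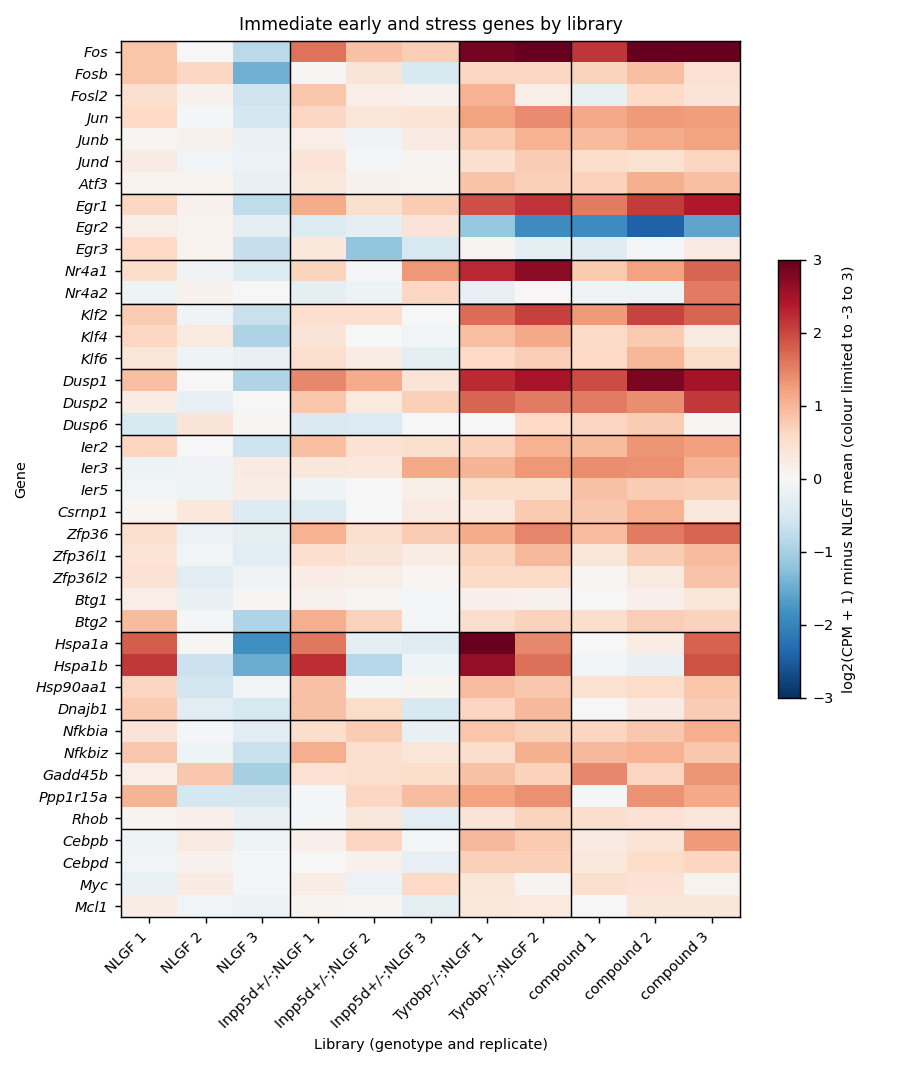
Heat map of the 40 genes (rows, grouped by family) in the 11 libraries (columns), as log2(CPM + 1) minus the mean of the 3 NLGF libraries, with colour limited to -3 to 3. Fos, Egr1, Klf2 and Dusp1 are red in all 5 libraries without Tyrobp, Egr2 is blue there, and the Hspa1a and Hspa1b rows vary within every group.

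Of the 7 AP-1 genes, 5 rose in the mean Tyrobp effect: Fos, Jun, Junb, Jund and Atf3. Fos (chromosome 12, 85473890 to 85477273, plus strand), the main inducible partner of Jun, was at 371, 206.5 and 117.5 CPM in NLGF and at 643.5, 384 and 350.5 in Inpp5d+/-. It was at 1528 and 1885 CPM in Tyrobp-/- and at 918, 2183 and 2013 in the compound mutant. No library with Tyrobp reached the lowest library without it, and compound replicate 1 was the lowest of those 5. The group means were 231.7 ± 129, 459 ± 160, 1707 ± 252.6 and 1705 ± 687 CPM (SD, n = 3, 3, 2 and 3), and the mean Tyrobp effect was 5.23-fold (log2 fold change 2.39, SE 0.332, edgeR adjusted p = 0.00406).

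Jun (chromosome 4, 95049034 to 95052222), whose protein pairs with Fos in AP-1, was at 540, 342 and 246 CPM in NLGF and at 553, 458 and 473 in Inpp5d+/-. It was at 824 and 955 in Tyrobp-/- and at 780, 866 and 846 in the compound mutant. Groups with and without Tyrobp did not overlap, and NLGF replicate 1 lay near the Inpp5d+/- libraries. The log2 fold change of Jun was 0.99 (SE 0.172, edgeR adjusted p = 0.0122). Junb (chromosome 8, 84976910 to 84978718), a Jun relative with weaker activating capacity, was at 290, 306.5 and 244 CPM in NLGF and at 322, 257 and 333 in Inpp5d+/-. It was at 480 and 571 in Tyrobp-/- and at 540, 603 and 644 in the compound mutant. The libraries of Junb were close within each group and far apart between Tyrobp genotypes (log2 fold change 0.94, SE 0.0989, edgeR adjusted p = 0.001).

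Atf3, a stress-induced factor that binds AP-1 and CRE sites, was at 74.6, 75 and 59 CPM in NLGF and at 86.2, 75.3 and 74.7 in Inpp5d+/-. It was at 125 and 114 in Tyrobp-/- and at 112, 147 and 130 in the compound mutant. The groups with and without Tyrobp did not overlap, with a log2 fold change of 0.75 (SE 0.102, edgeR adjusted p = 0.00384). Jund, the Jun relative with a high basal level in many cells, was at 69, 54.8 and 51.2 CPM in NLGF, 77.8, 55.5 and 61.7 in Inpp5d+/-, 81.1 and 98.4 in Tyrobp-/-, and 83.6, 79.9 and 91.5 in the compound mutant. The highest library with Tyrobp was close below the lowest without it (log2 fold change 0.50, SE 0.122, edgeR adjusted p = 0.0475). The exons of Jund share 334 bases (20%) with the antisense gene Gm11175, whose mean count was 3104 against 3752.5 for Jund, so without strand their reads cannot be told apart. Of 50-base stretches of the longest Jund transcript 48.3% also occur in another gene, mostly Gm11175. Jun likewise shares 7.28% of its exon bases with Junos. Fosb was at 34.9, 29.9 and 6.48 CPM in NLGF, between 13.7 and 25.4 in Inpp5d+/- and between 26.6 and 36.6 in the 5 libraries without Tyrobp, and was not called (log2 fold change 0.51, SE 0.366). Fosl2 lay between 3.37 and 12.6 CPM in all libraries and was not called either (0.27, SE 0.315).

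The 3 Egr genes, zinc finger factors that bind GC-rich sites, went in different directions. Egr1 was at 208, 149 and 79.8 CPM in NLGF, 293, 188 and 229 in Inpp5d+/-, 522 and 609 in Tyrobp-/-, and 401, 578 and 717 in the compound mutant. The libraries did not overlap between Tyrobp genotypes, and the log2 fold change was 1.61 (SE 0.245, edgeR adjusted p = 0.00651). Egr2 (chromosome 10, 67535475 to 67542188) was at 58, 55.3 and 42.9 CPM in NLGF and at 38.8, 41.8 and 67.3 in Inpp5d+/-. It was at 22.7 and 13.3 in Tyrobp-/- and at 13.2, 8.82 and 16.5 in the compound mutant. Every library without Tyrobp was below every library with it. Egr2 fell by 1.74 on the log2 scale (SE 0.241, edgeR adjusted p = 0.00406) and was the only one of the 40 that was called lower. Egr3 was low in all libraries, at 0.181 to 3.05 CPM, and its groups overlapped.

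**Figure D2:**
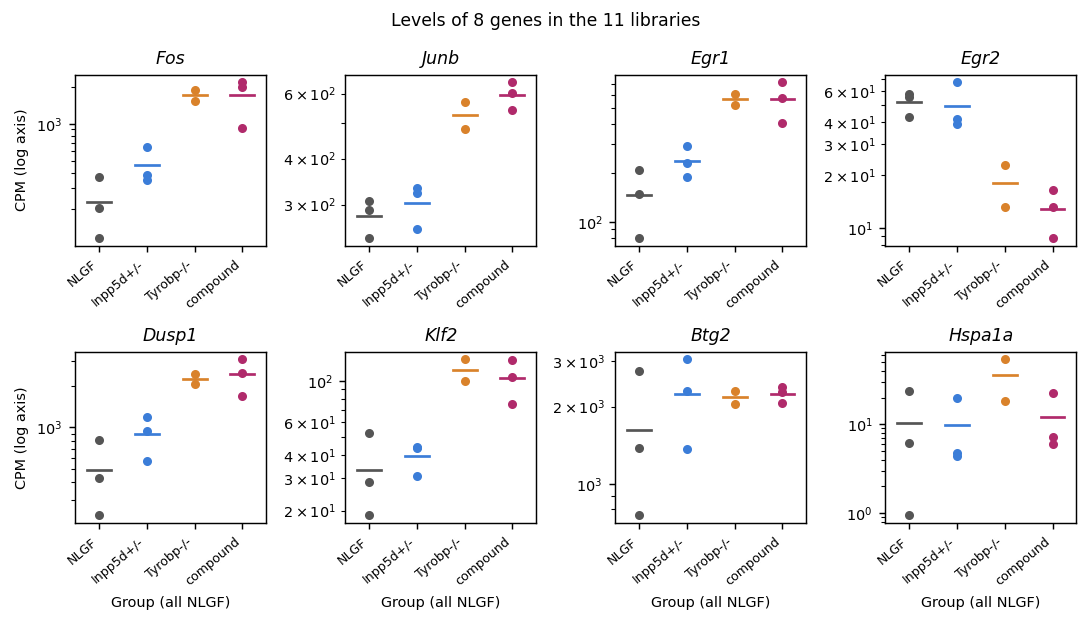
Levels of 8 of the genes in CPM on a log axis, with 1 point per library and a bar at the mean of each group. The points without Tyrobp lie above those with it for Fos, Junb, Egr1, Dusp1 and Klf2 and below for Egr2, while Btg2 and Hspa1a overlap between groups.

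Nr4a1, an orphan nuclear receptor gene induced with Fos and Egr1, was at 4.82, 2.74 and 2.04 CPM in NLGF and at 5.46, 2.93 and 8.96 in Inpp5d+/-. It was at 18.2 and 25.1 CPM in Tyrobp-/- but at 5.93, 8.32 and 12.7 in the compound mutant, where 2 of 3 libraries lay below Inpp5d+/- replicate 3. Nr4a1 was called in the mean Tyrobp effect (log2 fold change 1.70, SE 0.351, edgeR adjusted p = 0.0259). Its close relative Nr4a2 had 0 counts in 1 library and at most 2.59 CPM. Of the Klf genes, Krüppel-like zinc finger factors, Klf2, known for its part in quiescence of endothelium and T cells, was at 52.4, 28.6 and 18.9 CPM in NLGF and at 43.6, 44.1 and 30.6 in Inpp5d+/-. It was at 99.9 and 130 in Tyrobp-/- and at 75.2, 129 and 105 in the compound mutant, with no overlap between Tyrobp genotypes. Klf2 rose 3.0-fold (log2 fold change 1.59, SE 0.26, edgeR adjusted p = 0.00953). Klf6, the most abundant Klf gene, was at 476, 335.5 and 317 CPM in NLGF, 517.5, 432 and 303 in Inpp5d+/-, 563 and 622 in Tyrobp-/-, and 559, 740.3 and 541 in the compound mutant. Its groups with and without Tyrobp did not overlap, but edgeR did not call it (log2 fold change 0.61, edgeR adjusted p = 0.0682). DESeq2 and limma-voom called Klf6 higher (DESeq2 adjusted p = 0.00206, limma-voom adjusted p = 0.0469). Klf4 lay between 3.58 and 18.1 CPM and its groups overlapped.

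The Dusp genes give the negative feedback on MAP kinases. Dusp1 (chromosome 17, 26505590 to 26562128), a nuclear phosphatase that acts on p38 and JNK, was at 811, 431 and 233.2 CPM in NLGF and at 1179, 944.5 and 571.5 in Inpp5d+/-. It was at 2051 and 2430 in Tyrobp-/- and at 1687, 3085 and 2469 in the compound mutant. Groups with and without Tyrobp did not overlap, although both groups with Tyrobp spread widely, by 3.48 and 2.06 times from lowest to highest. The log2 fold change of Dusp1 was 1.81 (SE 0.315, edgeR adjusted p = 0.0125). Dusp2, another nuclear phosphatase, found mostly in immune cells, was at 8.01, 5.51 and 6.79 CPM in NLGF and at 12.5, 8.38 and 11.6 in Inpp5d+/-. It was at 24.7 and 21.6 in Tyrobp-/- and at 21.8, 19.4 and 32.7 in the compound mutant, again with no overlap (log2 fold change 1.48, SE 0.192, edgeR adjusted p = 0.00308). Dusp6, the cytoplasmic ERK phosphatase, lay between 565 and 1002 CPM with Tyrobp and between 782 and 1305 without it, and was not called (0.54, SE 0.19, edgeR adjusted p = 0.152). DESeq2 called Dusp6 higher (DESeq2 adjusted p = 0.0245) and limma-voom did not.

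In the Ier and Csrnp1 group, Ier5 and Ier3 rose. Ier5, a nuclear regulator that acts on heat shock factor activity, was at 101, 99.1 and 125 CPM in NLGF, 98.9, 109 and 122 in Inpp5d+/-, 157 and 155 in Tyrobp-/-, and 200.1, 184 and 178 in the compound mutant. No libraries overlapped (log2 fold change 0.64, SE 0.0897, edgeR adjusted p = 0.00406). Ier3, a stress-inducible gene linked to survival signals, was at 21.1, 21.7 and 28.1 CPM in NLGF, 29.8, 29.5 and 52.6 in Inpp5d+/-, 48.4 and 58.8 in Tyrobp-/-, and 63.3, 62 and 48.5 in the compound mutant. Inpp5d+/- replicate 3 lay in the range of the libraries without Tyrobp (log2 fold change 0.91, SE 0.18, edgeR adjusted p = 0.0212). Ier2, the most abundant of the group, was at 239, 150.1 and 97.8 CPM in NLGF, 285.5, 205 and 211 in Inpp5d+/-, 247 and 314 in Tyrobp-/-, and 294, 381 and 360 in the compound mutant. Inpp5d+/- replicate 1 lay in the range without Tyrobp, and Ier2 was not called (log2 fold change 0.68, edgeR adjusted p = 0.112). Csrnp1 was not called (0.68, edgeR adjusted p = 0.108). DESeq2 called Ier2 and Csrnp1 higher (DESeq2 adjusted p = 0.00789 and 0.0231), and limma-voom called neither.

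Of the 5 genes of mRNA decay and the Btg family, 1 rose. Zfp36, which encodes tristetraprolin, was at 306, 194 and 178.5 CPM in NLGF, 450.1, 307 and 372 in Inpp5d+/-, 474 and 608 in Tyrobp-/-, and 415, 646 and 739 in the compound mutant. Inpp5d+/- replicate 1 lay above compound replicate 1, and the log2 fold change was 0.97 (SE 0.195, edgeR adjusted p = 0.0229). Btg2 (chromosome 1, 134075170 to 134079120), an antiproliferative cofactor of deadenylation, had the highest mean level per length of the 40 genes, 751 RPKM against 436 for Dusp1 and 410 for Fos. It was at 2741, 1376 and 761 CPM in NLGF, 3041, 2287 and 1372 in Inpp5d+/-, 2042 and 2304 in Tyrobp-/-, and 2062, 2380 and 2285 in the compound mutant. The libraries without Tyrobp were close together, inside the range of those with it (log2 fold change 0.21, SE 0.302, edgeR adjusted p = 0.787). Of the 3 genes with the CRE, Dusp1 was called, and Btg2 and Ppp1r15a (log2 fold change 0.75, SE 0.375) were not. Differences between these genes were not tested, nor was any part of the element in their levels. Zfp36l1, Zfp36l2 and Btg1 had log2 fold changes of 0.57, 0.42 and 0.14 and were not called. DESeq2 called Zfp36l1 higher (DESeq2 adjusted p = 0.00336) and limma-voom did not. Of 50-base stretches of the Zfp36l1 transcript 56.9% also occur in another gene, mostly Gm26669.

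None of the 4 heat shock genes was called in any of the Tyrobp comparisons by edgeR or limma-voom, and none by DESeq2, which gave no adjusted p for 1 of the 4 in each comparison, Hspa1b in the mean Tyrobp effect. Hspa1a, an inducible HSP70 gene, was at 23.7, 6.14 and 0.955 CPM in NLGF and at 19.9, 4.74 and 4.41 in Inpp5d+/-. It was at 53.6 and 18.1 in Tyrobp-/- and at 6.07, 7.2 and 22.7 in the compound mutant. The levels of Hspa1a spanned 24.8 times within NLGF, more than any difference between group means. Hspa1b, its near-identical neighbour, was at 14.2, 1.23 and 0.239 CPM in NLGF, 15.2, 0.924 and 2.16 in Inpp5d+/-, 20.7 and 10 in Tyrobp-/-, and 2.3, 1.96 and 12.1 in the compound mutant. The libraries high in Hspa1a were high in Hspa1b too, namely replicate 1 of NLGF, of Inpp5d+/- and of Tyrobp-/- and compound replicate 3. Of 50-base stretches of the Hspa1a transcript 66.3% also occur in another gene, mostly Hspa1b, so their counts are not separate measurements. Hsp90aa1, the inducible HSP90, was at 185, 80.4 and 111.5 CPM in NLGF, 218.5, 116 and 126 in Inpp5d+/-, 225 and 208.5 in Tyrobp-/-, and 163, 173 and 211.5 in the compound mutant. Replicate 1 of both groups with Tyrobp lay in the range without it, and 58.5% of its stretches occur elsewhere, mostly in Gm12346. Dnajb1, the HSP40 partner of HSP70, was at 237, 110 and 96.5 CPM in NLGF, 252, 199.8 and 99.5 in Inpp5d+/-, 213 and 267 in Tyrobp-/-, and 138, 161 and 232.5 in the compound mutant. The mean Tyrobp effects of the 4 genes had a median of 0.60 and ran from 0.32 to 1.05, with a smallest edgeR adjusted p of 0.265 and 0 unadjusted p below 0.05. This average covers unlike values on both backgrounds. The median was 1.165, with 4 positive signs, in Tyrobp-/- against NLGF. It was 0.096, with 2 positive and 2 negative signs, in the compound mutant against Inpp5d+/-. In Tyrobp-/- against NLGF, 1 of the 4 had an unadjusted edgeR p below 0.05, Hsp90aa1 (log2 fold change 0.78, SE 0.344).

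The 5 feedback and stress genes had log2 fold changes from 0.48 to 0.81, and edgeR called 0 of them, with 2 unadjusted p below 0.05, while DESeq2 called 2 and limma-voom 1. They were Nfkbia and Nfkbiz, inhibitors and regulators of NF-kappa B, Gadd45b, Ppp1r15a, which restores translation after stress, and the small GTPase gene Rhob. Nfkbia, the most abundant, was at 401, 294 and 246 CPM in NLGF, 444, 524 and 263 in Inpp5d+/-, 545 and 508 in Tyrobp-/-, and 479, 541 and 657 in the compound mutant. Only Inpp5d+/- replicate 2 lay in the range of Nfkbia without Tyrobp. Rhob, with the smallest p of the group, was at 495, 522 and 406 CPM in NLGF, 454, 601 and 380 in Inpp5d+/-, 620.1 and 749.7 in Tyrobp-/-, and 679.8, 632 and 610 in the compound mutant, with no overlap (log2 fold change 0.48, SE 0.123, edgeR adjusted p = 0.0583). In the last group Cebpd, a transcription factor of the acute phase response, was at 77, 89.1 and 79.2 CPM in NLGF, 80.3, 89.9 and 69.1 in Inpp5d+/-, 134 and 135 in Tyrobp-/-, and 102, 119 and 129 in the compound mutant. Cebpd rose with no overlap (log2 fold change 0.63, SE 0.0958, edgeR adjusted p = 0.00621), and 15% of its exon bases are shared with Spidr on the other strand. Cebpb, Myc and Mcl1 were not called, with log2 fold changes of 0.66, 0.16 and 0.28. DESeq2 called Cebpb higher (DESeq2 adjusted p = 0.0133) and limma-voom did not. Mcl1, the most abundant of the group and an inhibitor of apoptosis, was at 407, 329 and 312 CPM in NLGF, 370.2, 357.5 and 287 in Inpp5d+/-, 430 and 423 in Tyrobp-/-, and 351, 437 and 440.5 in the compound mutant, and compound replicate 1 lay within the range with Tyrobp.

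The subgroups were compared in each library as the mean log2 difference from NLGF over their genes. The AP-1 mean was 0.45, 0.12 and -0.57 in the NLGF libraries, 0.58, 0.25 and 0.18 in Inpp5d+/-, 1.12 and 1.13 in Tyrobp-/-, and 0.84, 1.26 and 1.16 in the compound mutant. All 5 libraries without Tyrobp were above the 6 with it. The Dusp mean was 0.23, 0.04 and -0.27 in NLGF, 0.61, 0.33 and 0.38 in Inpp5d+/-, 1.33 and 1.55 in Tyrobp-/-, and 1.39, 1.67 and 1.57 in the compound mutant, also with no overlap. The Klf mean was between -0.60 and 0.58 with Tyrobp and between 0.81 and 1.32 without it. The Ier and Csrnp1 mean also separated them, at most 0.515 with Tyrobp and at least 0.638 without it. For the feedback and stress genes these limits were 0.538 and 0.704. For the group of Cebpb, Cebpd, Myc and Mcl1 they were 0.161 and 0.267. The means of Nr4a and of mRNA decay and Btg overlapped between Tyrobp genotypes. The Egr mean, which holds both Egr1 and Egr2, did not separate the groups and ran from -0.57 to 0.46 in NLGF and from -0.23 to 0.36 in the compound mutant. The heat shock mean was 1.35, -0.37 and -0.98 in NLGF, 1.39, -0.15 and -0.22 in Inpp5d+/-, 1.79 and 1.22 in Tyrobp-/-, and 0.10, 0.19 and 1.32 in the compound mutant. Heat shock means of replicate 1 of NLGF and of Inpp5d+/- were thus within the range of the Tyrobp-/- libraries. Compound replicates 1 and 2, at 0.10 and 0.19, lay inside the heat shock range of the libraries with Tyrobp. In AP-1 and Dusp they lay above all libraries with Tyrobp.

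**Figure D3:**
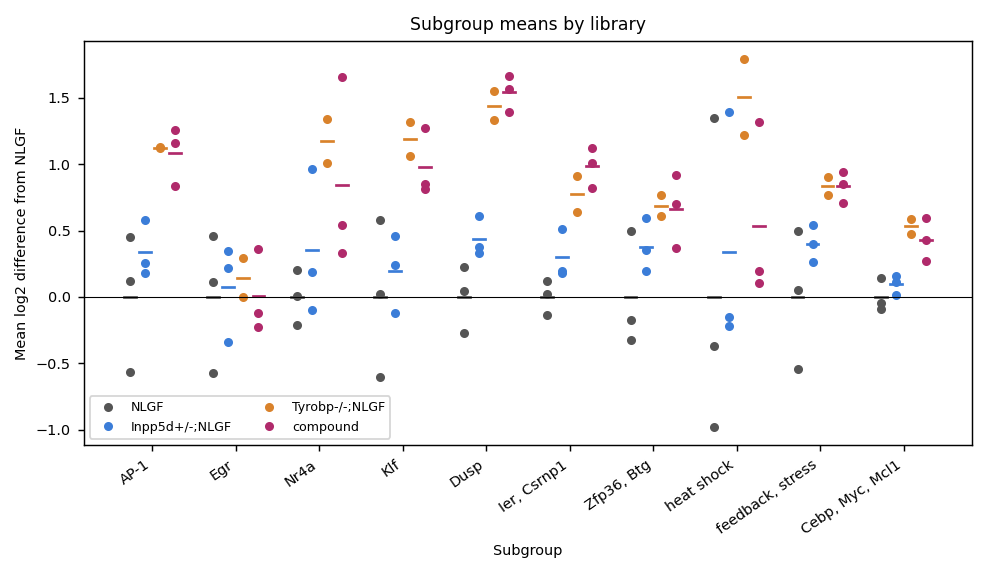
Mean log2 difference from NLGF of each subgroup (x axis) in each library (points), with a bar at the group mean. AP-1, Dusp and Klf separate the libraries without Tyrobp from those with it. The Ier and Csrnp1, feedback and stress, and Cebp, Myc and Mcl1 groups do so too. The heat shock points of all groups overlap over a range from -0.98 to 1.79.

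Libraries of 1 genotype also differed in these genes. In NLGF, replicate 1 was the highest of the 3 for 28 of the 40 genes, while it was highest for 38.3% of all tested genes, and replicate 3 was the lowest for 29, against 30.3%. In Inpp5d+/-, replicate 1 was highest for 23 (35.1% of all genes). In the compound mutant, replicate 1 was lowest for 24 (37.9%). Of the 37 members with a mean of at least 5 CPM, 14 (37.8%) had an NLGF standard deviation in the top 10% of the 10460 genes at that level. The median SD of the 37 was 0.42 on the log2 scale against 0.25 for all those genes. The 14 included Fos, Fosb, Egr1, Dusp1, Btg2 and all 4 heat shock genes, but not Junb, Atf3, Ier5 or Cebpd. The replicates have no order, and what goes with the high levels of NLGF replicate 1 was not tested, although its neutrophil marker sum was the lowest of all 11, at 0.737 CPM.

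The Tyrobp effect was then taken on each Inpp5d background, in comparisons that share no library. With both Inpp5d copies, Tyrobp-/- against NLGF, 5 of the 40 genes rose and 0 fell, where 0.255% of all genes were called higher and 0.608% lower. They were Fos (log2 fold change 2.88, SE 0.491), Nr4a1 (2.76, SE 0.525), Egr1 (1.96, SE 0.361), Dusp2 (1.77, SE 0.284) and Junb (0.91, SE 0.146), with edgeR adjusted p from 0.0221 to 0.0484. The median over the 40 was 0.76 and 0.002 over all genes. All 5 calls were lost without NLGF replicate 2, NLGF replicate 3 or either Tyrobp-/- library. Of the 5, 3 kept the call without Inpp5d+/- replicate 1 or 2 or compound replicate 2, and 3 without NLGF replicate 1, where Junb and Nr4a1 lost it and the count of called members was 6. Without Inpp5d+/- replicate 3 Egr1 lost its call, and without compound replicate 3 Nr4a1.

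With 1 Inpp5d copy, the compound mutant against Inpp5d+/-, 3 genes rose and 1 fell, against 0.265% higher and 0.633% lower over all genes. Junb had a log2 fold change of 0.97 (SE 0.134, edgeR adjusted p = 0.011), Ier5 of 0.77 (SE 0.121, edgeR adjusted p = 0.0207) and Atf3 of 0.72 (SE 0.138, edgeR adjusted p = 0.0487). Egr2 fell by 1.94 (SE 0.315, edgeR adjusted p = 0.0231). Fos had a log2 fold change of 1.89 in this comparison but did not pass (SE 0.448, edgeR adjusted p = 0.101). The median was 0.53 over the 40 and 0.02 over all genes. The 4 calls fell to 2 without Inpp5d+/- replicate 1 or 3 and to 1 without Inpp5d+/- replicate 2 or compound replicate 1 or 2. Junb kept its call in all 11 fits that left out a library, while Atf3 kept it in 1, without NLGF replicate 3.

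Junb was thus called in both comparisons. Of the 40 genes, 34 (85%) were positive in both and 1, Egr2, was negative in both, which makes 87.5% with the same sign. Over all tested genes 32.9% were positive in both and 63.4% had the same sign. Of the 34, Btg2 had a log2 fold change of 0.006 with 1 Inpp5d copy, and its sign turned with upper-quartile scaling.

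**Figure D4:**
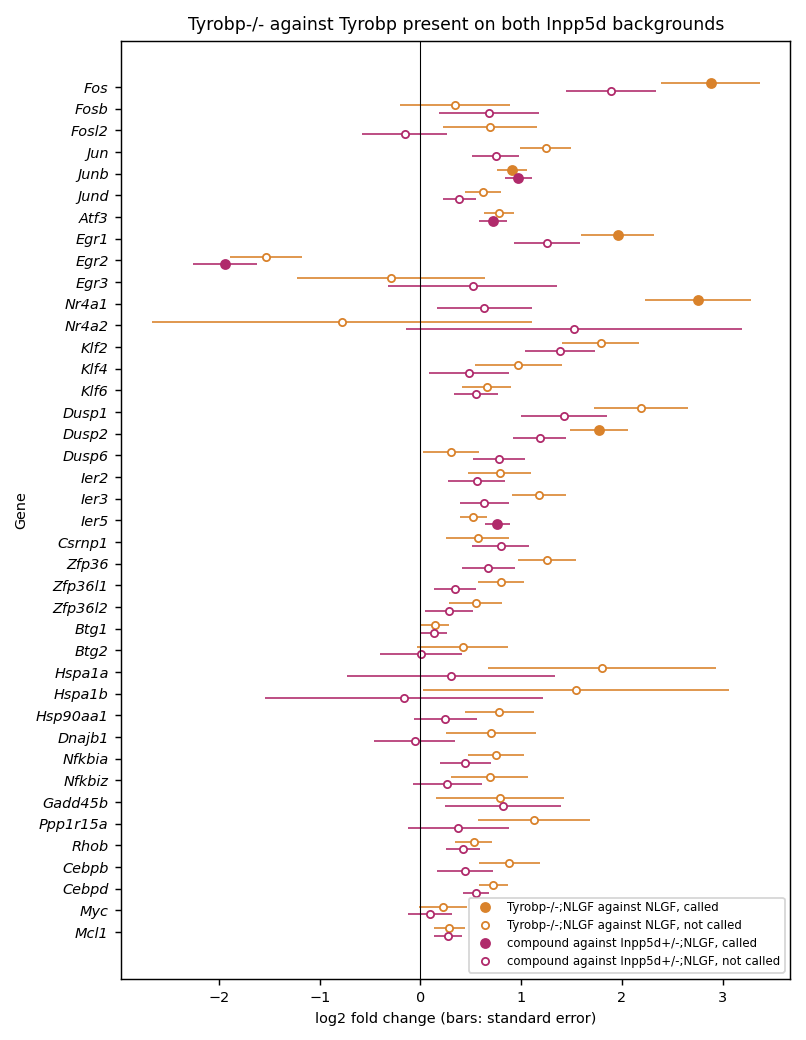
Log2 fold changes of the 40 genes for Tyrobp-/- against NLGF (orange) and for the compound mutant against Inpp5d+/- (magenta), with bars of 1 standard error and filled points for called genes. Most points of both colours lie right of 0, Egr2 lies left of 0 in both, and the bars of Nr4a2, Hspa1a and Hspa1b are the widest.

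The interaction of both genotypes, the difference between these Tyrobp effects, was called for 0 of the 40 genes by edgeR and for 0% of all genes, of which 958 had an unadjusted p below 0.05 and DESeq2 called 36. DESeq2 and limma-voom also called 0 of the 40, and 1 had an unadjusted edgeR p below 0.05. That gene was Nr4a1, whose Tyrobp effect was 2.76 with both Inpp5d copies and 0.64 with 1 (difference -2.12, SE 0.697, edgeR adjusted p = 1). The median interaction over the 40 genes was -0.41, with 8 positive signs, and 0.02 over all genes. It was -0.16 without NLGF replicate 3 (12 positive), -0.18 without Inpp5d+/- replicate 1 (13 positive) and -0.24 without compound replicate 1 (10 positive).

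The single Inpp5d copy on its own gave no call. In Inpp5d+/- against NLGF, edgeR, DESeq2 and limma-voom each called 0 of the 40 genes, and edgeR called 0% of all genes. Over all genes 951 had an unadjusted edgeR p below 0.05, DESeq2 called 29 and limma-voom 0. Of the 40, 31 had a positive sign (27 without NLGF replicate 3 and 35 without NLGF replicate 1), against 49.6% of all tested genes. The median log2 fold change was 0.26 over the 40 and 0 over all genes. It was 0.10 without NLGF replicate 3 and 0.51 without NLGF replicate 1. An unadjusted edgeR p below 0.05 was found for 4 of the 40. These were Zfp36 (log2 fold change 0.74, SE 0.262), Ier3 (0.66, SE 0.243), Dusp2 (0.68, SE 0.259) and Fos (0.99, SE 0.438), and all had an edgeR adjusted p of 0.952. Inpp5d+/- libraries overlapped with NLGF for Fos, at 350.5 to 643.5 against 117.5 to 371 CPM, and did not overlap for Zfp36, Ier3 and Dusp2. Of all 20390 tested genes, 743 were higher and 810 lower without such overlap. In the compound mutant against Tyrobp-/-, all 3 tools called 0 of the 40 genes and edgeR called 0.00981% of all genes. The median was 0.01 over the 40, with 20 positive signs, and ran from -0.11 without compound replicate 3 to 0.06 without compound replicate 1. Nr4a1 had the only unadjusted edgeR p below 0.05 (log2 fold change -1.27, SE 0.512, edgeR adjusted p = 1). At these group sizes no difference between Inpp5d genotypes passed the test in these genes.

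Other genes of the same pathways were examined from lists chosen by function. Of 21 tested immediate early genes outside the 40, 3 rose in the mean Tyrobp effect and 1 fell, with a median of 0.15. For this and the lists below, edgeR called 2.08% of all tested genes higher and 2.66% lower. Klf10, an early response factor of TGF-beta, lay at 12.4 to 27.2 CPM with Tyrobp and at 34.6 to 60.1 without it (log2 fold change 1.19, SE 0.24, edgeR adjusted p = 0.0232). Rgs2, an inhibitor of G protein signalling, lay at 538 to 683 and at 852 to 1039 CPM (0.63, SE 0.085, edgeR adjusted p = 0.00353). Maff, a small Maf factor, fell from 6.79 to 12 CPM down to 2.71 to 4.99 (log2 fold change -1.27, SE 0.224, edgeR adjusted p = 0.0132), and Trib1 had a log2 fold change of 0.71 (edgeR adjusted p = 0.0441).

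Of 20 upstream kinases and factors edgeR called 1, the p38 substrate Mapkapk2, which fell (log2 fold change -0.55, edgeR adjusted p = 0.0155). The median of this list was 0.02, and 2.66% of all tested genes were called lower. DESeq2 called 2 of the list higher and 2 lower, and limma-voom 1 higher and 1 lower. Of 12 AP-1 partners, which had a median of 0.26, edgeR called 0 (4 unadjusted p below 0.05), DESeq2 called 1 higher and 1 lower, and limma-voom 0. Of 9 tested further MAP kinase feedback genes, which had a median of 0.35, edgeR called 0 (2 unadjusted p below 0.05), DESeq2 1 and limma-voom 0. Of 20 further heat shock genes edgeR called 1, the mitochondrial chaperonin gene Hspd1, which fell (log2 fold change -0.56, edgeR adjusted p = 0.00621). The median was -0.07, and DESeq2 and limma-voom each called 1 gene higher and 1 lower. Of 20 rapid NF-kappa B targets edgeR called 2 higher and 2 lower, DESeq2 5 higher and 2 lower, and limma-voom 4 higher and 2 lower. The cytokine gene Tnf had a log2 fold change of 1.49 (edgeR adjusted p = 0.0206) and Nfkb1, a subunit of the factor, one of 0.62 (edgeR adjusted p = 0.0173). The chemokine gene Ccl3 fell by 0.69 (edgeR adjusted p = 0.0154). Nfkbid, an atypical NF-kappa B inhibitor, fell by 1.80 (edgeR adjusted p = 0.0139), and it lies at 30421732 to 30428746 on chromosome 7, next to the targeted Tyrobp gene at 30413760 to 30417585.

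Neutrophil and monocyte transcripts moved with the Tyrobp genotype: 9 of 13 neutrophil and 4 of 11 monocyte markers were called higher in the mean Tyrobp effect. S100a8, the most abundant, was at 0.24, 80.9 and 37.7 CPM in NLGF, 43.7, 10.1 and 61.4 in Inpp5d+/-, 6925 and 1604 in Tyrobp-/-, and 94, 3645 and 783 in the compound mutant. Compound replicate 1, with a neutrophil sum of 256 CPM, was near the 233.2 CPM of the highest library with Tyrobp. Its monocyte sum was 135 CPM, above the 81.2 CPM of the highest library with Tyrobp. In that library 18 of the 40 genes (45%) were above all 6 libraries with Tyrobp, against 20.5% of all tested genes, and Fos was at 918 CPM against at most 643.5 in those 6. The library is 1 of the 5 behind the calls, so these are values and not a separate test. The neutrophil marker mean, in log2(CPM + 1), ran from 0.075 to 2.651 with Tyrobp and from 2.398 to 8.561 without it. It thus goes largely with the Tyrobp genotype, and a fit with it as a covariate separates them poorly. In that fit 0 of the 40 genes were called by edgeR. Fos then had a log2 fold change of 2.21 (SE 0.687, edgeR adjusted p = 0.341), Junb of 0.88 (SE 0.194, edgeR adjusted p = 0.178) and Egr2 of -1.72 (SE 0.494, edgeR adjusted p = 0.31), and the median was 0.73. Without the covariate the SE of these genes was 0.332, 0.0989 and 0.241, and the median was 0.64. Without the 2 libraries with most S100a8, 4 genes were called, Fos, Junb and Dusp2 higher and Egr2 lower, and the median was 0.64. Beside these fits, the part of the neutrophil and monocyte transcripts in the results was not tested.

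Of the 15 calls in the mean Tyrobp effect, 9 were kept in all 11 fits that left out 1 library: Fos, Junb, Atf3, Egr1, Egr2, Klf2, Dusp2, Ier5 and Cebpd. Jun and Dusp1 lost the call without Tyrobp-/- replicate 2 (edgeR adjusted p = 0.0583 and 0.0521). Jund was kept in 2 fits, without NLGF replicate 1 and without Inpp5d+/- replicate 1. Zfp36 was lost in 7 fits, those without NLGF replicate 2 or 3, Inpp5d+/- replicate 2 or 3, either Tyrobp-/- library or compound replicate 2. Nr4a1 was lost in 6, without NLGF replicate 2 or 3, Inpp5d+/- replicate 1, either Tyrobp-/- library or compound replicate 3. Ier3 was lost in 5, without NLGF replicate 1 or 2, either Tyrobp-/- library or compound replicate 1. The count of called members was 9 without Tyrobp-/- replicate 2, the lowest of these fits, and 14 without compound replicate 1.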

How the data were processed

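RNA was measured in 11 libraries of sorted mouse microglia. Read counts per gene were deposited by the authors as whole numbers that carry no scaling. The submitters' processing notes name the aligner STAR (2.7.3a), the counter featureCounts (1.6.4) and the genome builds GRCm38.p6 and mm10. Not given in the sources used here are the annotation release, the strand setting and how reads with several positions were counted, so overlapping, antisense and near-identical genes are uncertain. The 37 genes of chromosome M had 0 counts throughout.

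Groups came from the genotype label, and replicate numbers follow sample order and pair nothing. No pair of libraries held identical values. Genes were kept with filterByExpr (minimum count 10, minimum total 15), which left 20390. Counts were scaled by TMM and fitted by the quasi-likelihood method of edgeR 4.0.16 (R 4.3.3), with 1 coefficient per group over 11 libraries. Adjusted p-values are Benjamini-Hochberg values over all tested genes within a comparison, at a threshold of 0.05. The standard error (SE) was derived from the test statistic. Means of subgroups are of log2(CPM + 1). RPKM was computed from CPM and the exon length in the table. Limits of 3 counts cover counting error only. The procedure was also run on simulated counts in which all genes shared the same setting for the spread between libraries. The members had a larger median SD in NLGF than other genes (0.42 against 0.25). That run therefore does not show how the procedure performs on them.

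The 40 genes, their subgroups, the pathway and marker lists, the alternatives and the tests were chosen with earlier results of these data known. Full values are given for genes called in at least 1 comparison and, per subgroup, for the most abundant gene and the gene with the smallest p in the mean Tyrobp effect. From each pathway list up to 3 called genes with the smallest p were to be named. Where a pathway list had more, those beyond 3 were named after their values were seen. The alternatives used other scaling (upper-quartile or RLE), no filter, a minimum count of 50, DESeq2 1.42.0, limma-voom (limma 3.58.1), a threshold of 0.1, fits on the compared groups only, an additive model, a neutrophil marker covariate, the omission of both libraries highest in S100a8, and each library left out.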

Additional observations from a re-analysis of the deposited data

How the results depend on the processing

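No called fold change turned its direction under any alternative run, and of the 40 signs in the mean Tyrobp effect 0 changed with either other scaling and 4 with the neutrophil marker covariate. In Tyrobp-/- against NLGF, where 5 of the 40 genes were called, the count was 10 with a minimum count of 50, 16 with DESeq2, 10 with limma-voom and 13 at a threshold of 0.1. It was 0 with the neutrophil marker covariate, 0 with both libraries highest in S100a8 left out, 0 with only the compared groups in the fit, and 0 to 7 when 1 library was left out. In the compound mutant against Inpp5d+/-, where 4 were called, it was 12 with DESeq2, 0 with the covariate, 0 with both libraries highest in S100a8 left out, 2 with only the compared groups, and 1 to 5 when 1 library was left out. In the mean Tyrobp effect, where 15 were called, it was 23 with DESeq2, 0 with the covariate, 4 with both libraries highest in S100a8 left out, and 9 to 17 when 1 library was left out. Over all genes the 968 calls of the mean Tyrobp effect became 2159 with DESeq2, 49 with the covariate, 216 with both libraries highest in S100a8 left out, and 356 and 372 without Tyrobp-/- replicate 2 or 1. The 176 calls over all genes in Tyrobp-/- against NLGF ranged from 12 to 1035, and the 183 in the compound mutant against Inpp5d+/- from 46 to 1038, the lowest with the covariate and the highest with DESeq2. The other comparisons gave 0 called members in every alternative run. The fits with fewer libraries have fewer degrees of freedom by construction. The covariate goes largely with the Tyrobp genotype, and the SE of Fos in the mean Tyrobp effect was 0.687 with it against 0.332 without it. The cause of the shifts was otherwise not tested. No paired analysis was possible because the titles carry no replicate numbers shared between groups. With 2 libraries in the Tyrobp-/- group, leaving out 1 leaves a lone library, which is assumed to vary like the other groups.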
